A study of Danio rerio with 6 samples.

Results

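Genes that zebrafish red blood cells use for their regulation, heme synthesis, membrane and cytosol were followed in whole embryos at 72 hours post-fertilization (hpf), in wild-type and miR-34a-/- libraries. There were 10 of them, namely alas2, hemgn, gata1a, klf1, nfe2, slc4a1a, epb41b, cahz, rhag and sptb. They were matched by their zebrafish symbols to Ensembl identifiers in a table of 32520 genes, and all 10 were among the 19240 genes with enough reads to be tested. The 6 libraries were 3 from wild-type and 3 from miR-34a-/- embryos, and each was made from poly-A RNA of a pool of 30 whole embryos. Both lines were in the casper background, a strain that lacks part of the body pigment. The mutant line carried a homozygous CRISPR/Cas9 deletion of the microRNA gene miR-34a and was kept as a line of its own, so the wild-type embryos were not clutch mates of the mutants. The labels did not say whether pools of 1 genotype came from separate clutches, so the p-values measure the spread between these pools. In RNA of whole embryos, a change in the number of red cells cannot be told apart from a change in the RNA per red cell.

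The library totals ranged from 10273343 to 16369150 counts, with 23652 to 24462 genes detected per library, and 3 counts corresponded to 0.186 to 0.293 CPM, the normalised count scaled to library size. The precursor gene of miR-34a (MIR34A, ENSDARG00000081220) had 0 counts over the 6 libraries, wild-type included, so these mRNA libraries did not check the deletion. The library miR-34a-/- replicate 1 stood furthest from the others of its genotype. Leaving it out raised the number of genes called higher from 178 to 559 and the number called lower from 184 to 945. Calls that move with it are given with and without it for the 10 genes, their relatives outside red cells and further red cell genes. Hemoglobin genes and markers of other cell types were read only in the fit of all 6 libraries.

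The microRNA absent from the mutant line is shown for its seed, the bases by which a microRNA recognises its targets, in capitals (bases 2 to 8, in DNA letters).
miR-34a: tGGCAGTGtcttagctggttgt

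Red cell precursors switch on a small set of transcription factors, led by Gata1 and Klf1 in mammals, which activate the genes for hemoglobin, heme synthesis and the cell membrane. The mature cell is filled with hemoglobin and carbonic anhydrase. Its membrane carries the band 3 anion exchanger and Rh proteins, which are tied to a mesh of spectrin by ankyrin and protein 4.1. Fish red cells keep their nucleus and continue to transcribe genes in the circulation. At this stage the embryo lives on primitive red cells, and definitive blood formation has begun.

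In the miR-34a-/- libraries 6 of the 10 genes rose and none fell. The call required an adjusted p under 0.05 in edgeR's quasi-likelihood test, with Benjamini-Hochberg adjustment over all genes tested, and a fold change above 1.5. By the same call 0.925% of all tested genes were higher and 0.956% were lower, 1.88% in all. The genes that rose were alas2, hemgn, gata1a, slc4a1a, epb41b and cahz. The other genes were klf1, nfe2, rhag and sptb. The study had already reported alas2, hemgn and gata1a as higher in the mutant from these same libraries. All 6 calls here rest on those libraries, so none adds separate evidence. In the study's in situ hybridization, mutant embryos more often scored high for alas2. Its qPCR on separate pools found hemoglobin genes higher, but not the markers of other mature blood cells. The study's text lists alas2 and hemgn under hemoglobin genes. Its staining for hemoglobin was stronger in mutant embryos, which the study reads as more erythrocytes or hemoglobin. In 8 of the 10 genes every mutant library lay above every wild-type library, against 11% of all tested genes, and in none did every mutant library lie below (10.2% of all tested genes). The fitted change was above 0 in 9 of the 10 genes, as in 48.1% of all tested genes. The 10 genes were chosen with earlier results of these data known, so these shares describe the list and test nothing. The median log2 fold change of the 10 genes was 1.09, and that of all tested genes was -0.01. With the 2-fold limit of the study's methods in place of 1.5, 5 of the 10 were called higher (0.567% of all tested genes), since cahz had a fitted change of 1.92-fold.

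**Figure D1:**
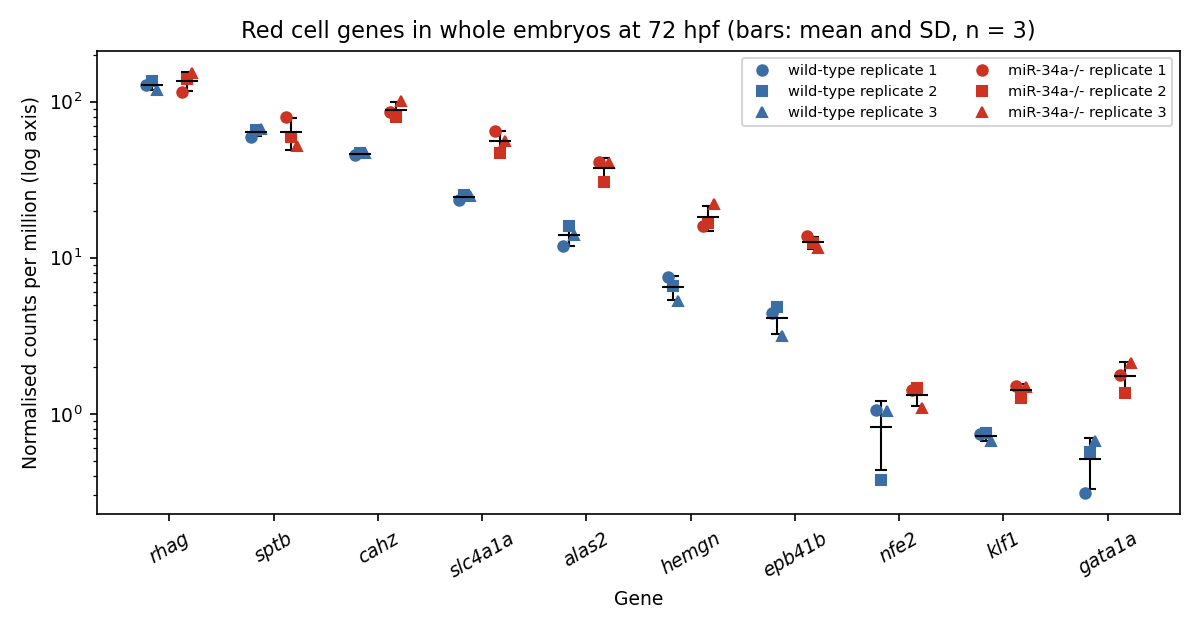
Normalised read counts (CPM) of the 10 red cell genes in each of the 6 libraries on a log axis, with wild-type in blue and miR-34a-/- in red, and bars for the mean and SD of 3 libraries. The red points lie above the blue points in 8 genes, and they overlap in rhag and sptb.

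alas2 (ENSDARG00000038643) encodes 5-aminolevulinate synthase 2, the first enzyme of heme synthesis in red cells. Its level was 12.0, 15.9 and 14.0 CPM in the wild-type libraries (replicates 1, 2 and 3), and 40.9, 30.5 and 40.6 CPM in the mutant libraries, in the same order. The lowest mutant library was well above the highest wild-type library. The mean was 13.9 ± 1.97 CPM (SD, n = 3) in wild-type and 37.3 ± 5.91 CPM (SD, n = 3) in the mutant, a log2 fold change of 1.43 ± 0.14 (SE, with an edgeR adjusted p of 0.000658). The study designed a pair of primers for an in situ hybridization probe to this transcript, shown here because they name the part of the gene that its probe reads, without the phage promoter tail of the reverse primer.
alas2 forward primer: ctgagcaaaatggccttctc
alas2 reverse primer: cccagagttccagagacaa

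The regulators of red cell genes were covered by far fewer reads than alas2, apart from hemgn. gata1a (ENSDARG00000013477) encodes the zinc-finger factor that commits precursors to the red cell and thrombocyte lineages. It had 5, 6 and 7 counts in the wild-type libraries and 20, 14 and 33 in the mutant libraries. After scaling these were 0.310, 0.568 and 0.665 CPM against 1.78, 1.37 and 2.13 CPM. The groups did not overlap, and gata1a had the largest fitted change of the 10 genes and the widest interval among those called. The log2 fold change was 1.85 ± 0.37 (SE, with an edgeR adjusted p of 0.0316), with a 95% interval from 1.01 to 2.68. This call was lost in 7 of 12 alternatives, among them leaving out any library but miR-34a-/- replicate 1, the replicate block (adjusted p = 0.0827) and DESeq2 (adjusted p = 0.0754), while the fitted change stayed between 1.52 and 2.07.

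hemgn (ENSDARG00000096667), hemogen, is a nuclear protein of differentiating blood cells that lies downstream of Gata1 in zebrafish and mouse. Its level was 7.56, 6.63 and 5.32 CPM in the wild-type libraries and 15.9, 16.7 and 22.0 CPM in the mutant libraries. Each mutant library was higher than each wild-type library. The mean went from 6.50 ± 1.13 to 18.2 ± 3.29 CPM (SD, n = 3 each), a log2 fold change of 1.48 ± 0.17 (SE, with an edgeR adjusted p of 0.00171).

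klf1 (ENSDARG00000017400), the Krüppel-like factor that activates globin and membrane genes in the mouse, did not pass the test. It had 12, 8 and 7 counts in the wild-type libraries and 17, 13 and 23 counts in the mutant libraries, which scaled to 0.744, 0.757 and 0.665 CPM against 1.51, 1.27 and 1.48 CPM. The 3 mutant values lay above the 3 wild-type values. The fitted log2 fold change was 0.97 ± 0.30 (SE) with a 95% interval from 0.30 to 1.64, an unadjusted p of 0.00891 and an edgeR adjusted p of 0.150. This interval holds the fitted changes of alas2 and hemgn, so at this depth klf1 could not be told from either them or a much smaller change.

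nfe2 (ENSDARG00000020606) encodes a bZIP factor of red cell precursors and thrombocytes. Its counts were 17, 4 and 11 in the wild-type libraries and 16, 15 and 17 in the mutant libraries, or 1.05, 0.379 and 1.05 CPM against 1.42, 1.47 and 1.1 CPM. The lowest mutant value was just above the highest wild-type value, and wild-type replicate 2 was far below the others of its group. The log2 fold change was 0.62 ± 0.38 (SE, with an edgeR adjusted p of 0.481), with a 95% interval from -0.24 to 1.48.

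Of the membrane transporters, slc4a1a changed and rhag was not called. slc4a1a (ENSDARG00000012881) encodes band 3, which exchanges chloride and bicarbonate across the red cell membrane and anchors the membrane skeleton. Its level was 23.3, 25.1 and 24.7 CPM in the wild-type libraries and 65.3, 46.8 and 55.9 CPM in the mutant libraries. The wild-type libraries lay close together and far below all 3 mutant libraries. The mean was 24.4 ± 0.94 against 56.0 ± 9.21 CPM (SD, n = 3 each), a log2 fold change of 1.2 ± 0.12 (SE, with an edgeR adjusted p of 0.000552).

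rhag (ENSDARG00000019253), the Rh-associated glycoprotein that passes ammonia and gases through the membrane, was at 127, 135 and 119 CPM in the wild-type libraries and 116, 140 and 153 CPM in the mutant libraries. The ranges overlapped, with the lowest value in a mutant library. The log2 fold change was 0.10 ± 0.10 (SE, with an edgeR adjusted p of 0.682), and its 95% interval from -0.13 to 0.33 lay below the intervals of all 6 genes that rose. A related gene of the same name family, rh50 (ENSDARG00000041848), chosen after its values were seen, had 0 to 0.248 CPM (wild-type) and 0 to 0.193 CPM (mutant) and was not tested.

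Of the genes for the membrane skeleton, epb41b rose and sptb was not called. epb41b (ENSDARG00000029019) encodes protein 4.1R, which joins spectrin and actin to the membrane. It was at 4.40, 4.83 and 3.14 CPM in the wild-type libraries and 13.7, 12.4 and 11.5 CPM in the mutant libraries. All 3 mutant libraries were above all 3 wild-type libraries. The mean went from 4.12 ± 0.88 to 12.5 ± 1.12 CPM (SD, n = 3 each), a log2 fold change of 1.59 ± 0.18 (SE, with an edgeR adjusted p of 0.00118).

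sptb (ENSDARG00000030490), beta spectrin, was at 59.7, 65.3 and 66.9 CPM in the wild-type libraries and 79.5, 59.7 and 51.6 CPM in the mutant libraries. The mutant libraries spread on both sides of the wild-type libraries, with miR-34a-/- replicate 1 the highest. The log2 fold change was -0.01 ± 0.14 (SE, with an edgeR adjusted p of 0.981), with a 95% interval from -0.32 to 0.30. Without miR-34a-/- replicate 1 it was -0.20 (adjusted p = 0.118), and that of rhag was 0.21 (adjusted p = 0.0726).

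cahz (ENSDARG00000011166), the carbonic anhydrase of fish red cells, was at 45.8, 46.6 and 46.7 CPM in the wild-type libraries and 86.4, 80.2 and 100.3 CPM in the mutant libraries. It had the smallest adjusted p of the 10 genes, and its wild-type libraries differed by under 1 CPM. The mean was 46.3 ± 0.47 against 88.9 ± 10.3 CPM (SD, n = 3 each), a log2 fold change of 0.94 ± 0.09 (SE, with an edgeR adjusted p of 0.000476).

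Within each library, the log2 ratio of each gene that rose to rhag and to sptb gave differences between genotype means from 0.84 for cahz over rhag to 1.54 for epb41b over sptb, over 12 pairs. These pairs were chosen by how their genes had moved and share their denominators, so the values are a description with no test. For gata1a they depended on the pseudocount, from 0.49 to 1.53 over rhag and from 0.61 to 1.66 over sptb.

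The next question was whether broadly used relatives of these genes moved as well. Of the 10 genes, 9 had counterparts in the same protein family that are used outside red cells, 35 genes in all, of which 33 were tested. Whether blood cells use some of these counterparts as well was not tested. Of the 33 tested, klf3 alone was called higher and none lower, against 0.925% and 0.956% of all tested genes. The median log2 fold change of the counterparts was -0.04, with a range from -0.59 to 1.18. Their summed level was 1448 ± 80.6 CPM in wild-type and 1448 ± 65.0 CPM in the mutant (SD, n = 3 each).

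alas1 (ENSDARG00000021059), the enzyme of heme synthesis in cells other than red cells, measured 92.8 ± 1.22 CPM in wild-type libraries and 103.9 ± 16.5 CPM in the mutant, with a log2 fold change of 0.16 ± 0.11 (SE, with an edgeR adjusted p of 0.496). A gene listed as EPB41 (ENSDARG00000099283), taken as the second zebrafish gene for protein 4.1R, was at 23.9 ± 1.5 and 22.9 ± 3.81 CPM, with a log2 fold change of -0.07 ± 0.13. A gene listed as SLC4A1 (ENSDARG00000024560), taken as the second band 3 gene, was at 6.19 ± 0.43 and 5.15 ± 1.17 CPM, with a log2 fold change of -0.28 ± 0.20. These 3 relatives overlapped between genotypes. The carbonic anhydrase gene ca2 (ENSDARG00000014488) had 29.4 ± 2.39 and 25.3 ± 4.73 CPM, also overlapping, at a log2 fold change of -0.23 ± 0.14. These 4 relatives were named after their values were seen, and the counterparts of gata1a differed from them. gata3, gata2a and gata2b had fitted log2 fold changes of 0.13, 0.24 and 1.00, none passed the test, and in gata2a and gata2b every mutant library lay above every wild-type library.

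**Figure D2:**
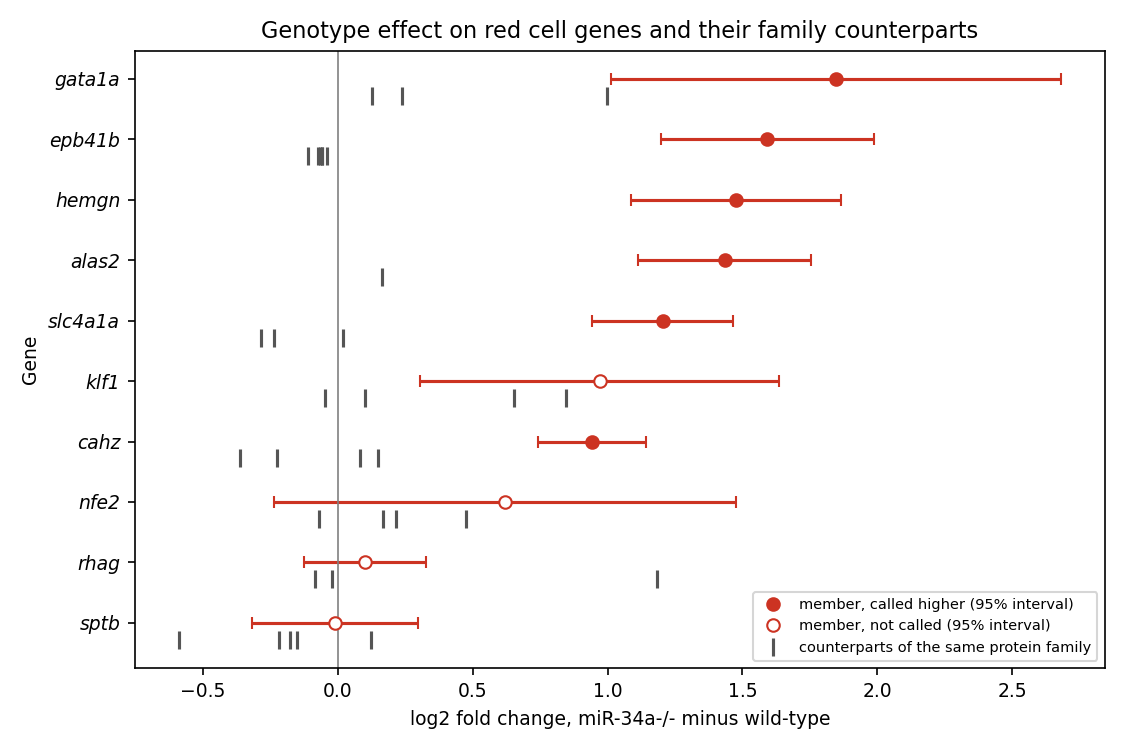
Fitted log2 fold change of the 10 red cell genes, miR-34a-/- minus wild-type, with 95% intervals (circles, filled where called higher) and the fitted values of their tested family counterparts (grey ticks). The circles of the 6 called genes lie between 0.94 and 1.85, the ticks below alas2, slc4a1a, epb41b and cahz lie between -0.36 and 0.16, and those below gata1a at 0.13, 0.24 and 1.00.

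The counterpart that was called belongs to the Krüppel-like family. klf3 (ENSDARG00000015495), a repressor related to Klf1, rose from 21.6 ± 3.46 to 38.9 ± 9.31 CPM (SD, n = 3 each), a log2 fold change of 0.84 ± 0.18 (SE, with an edgeR adjusted p of 0.0369). This call was lost when any library other than miR-34a-/- replicate 1 was left out. klf2a, with a fitted log2 fold change of 0.65, did not pass the test. rhcga (ENSDARG00000003203), a relative of rhag, had the largest fitted change of the counterparts, 1.18 ± 0.31 (SE, with an edgeR adjusted p of 0.0926), and all its mutant libraries lay above the wild-type libraries. It was called in 5 alternatives. The counterpart with the highest average CPM, a gene listed as SPTBN1 (ENSDARG00000102883) for the beta spectrin of other tissues, was at 188 ± 19.1 and 162 ± 53.1 CPM, with a log2 fold change of -0.22 ± 0.19. The count of counterparts called depended on miR-34a-/- replicate 1: without it 6 were called, with klf2a, klf3 and rhcga higher and klf13, ca4a and SPTBN4 (ENSDARG00000092624) lower. The calls over all genes rose in that fit too, to 559 higher (2.88%) and 945 lower of 19434 tested genes. The count of counterparts went to 0 when wild-type replicate 2, wild-type replicate 3, miR-34a-/- replicate 2 or miR-34a-/- replicate 3 was left out. Without wild-type replicate 1 the single call was rhcga.

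The 9 red cell genes with counterparts were also set against them within each library, as a log2 ratio of CPM plus a pseudocount of 0.5 CPM. The ratio was higher in every mutant library than in every wild-type library for alas2, gata1a, klf1, slc4a1a, epb41b and cahz, with differences in the means of 1.24, 1.00, 0.36, 1.25, 1.58 and 1.13. Each reached the smallest exact permutation p of 0.1 (two-sided, adjusted p = 0.15 over 9 genes). For the low-count genes the pseudocount set much of the size: with 0.1 and 2 CPM the difference was 1.47 and 0.42 for gata1a, and 0.59 and 0.04 for klf1. For nfe2, rhag and sptb the differences were 0.38 (exact permutation p = 0.3), 0.07 (exact permutation p = 0.6) and 0.21 (exact permutation p = 0.5), and the groups overlapped.

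Most other listed red cell genes were not called. Among 22 further genes for red cell transcription and signalling, 18 were tested, 1 rose and none fell. Over all tested genes 0.925% were called higher and 0.956% lower. The median log2 fold change of this list was 0.00. The gene that rose was blf (ENSDARG00000043126), a zinc-finger gene needed for globin expression in zebrafish, with 1.78 ± 0.38 CPM in wild-type libraries and 4.34 ± 0.26 CPM in the mutant, a log2 fold change of 1.29 ± 0.23 (SE, with an edgeR adjusted p of 0.0157). Its call was lost when wild-type replicate 1, wild-type replicate 3 or miR-34a-/- replicate 2 was left out. Without miR-34a-/- replicate 1 stat5a was called as well, lower, with a log2 fold change of -0.92 (adjusted p = 0.0338), in a fit with 945 of 19434 tested genes lower. Genes that act beside gata1a were not called: tal1 had a log2 fold change of 0.11 ± 0.10, lmo2 of 0.48 ± 0.20 and zfpm1 of -0.05 ± 0.11. The gene of this list with the highest average CPM, LDB1 (ENSDARG00000010137), which bridges these factors on DNA in mammals, had -0.08 ± 0.08. Several of these genes are used in other tissues of the embryo as well. Of the genes too low to test, gfi1b had 5, 2 and 0 counts in the wild-type libraries and 16, 7 and 8 in the mutant libraries. All its mutant libraries lay above the wild-type libraries. In drl, epor and MAFG (ENSDARG00000018109), also untested, the genotypes overlapped.

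Among 20 further genes of the red cell membrane and skeleton, 19 were tested, 1 rose and none fell (0.925% and 0.956% of all tested genes). The median log2 fold change was -0.01, and the part of other tissues in these levels was not tested. The gene that rose was slc9a1b (ENSDARG00000097339), a sodium-proton exchanger known from trout red cells, with 2.30 ± 0.41 CPM in wild-type libraries and 5.98 ± 0.51 CPM in the mutant, a log2 fold change of 1.40 ± 0.21 (SE, with an edgeR adjusted p of 0.00682). Without wild-type replicate 1 it was not called, and without miR-34a-/- replicate 1 this list had 3 calls, with add1 and an ANK1 gene (ENSDARG00000074777) lower. In the latter fit 945 of 19434 tested genes were called lower. The blood group relatives kel and rhd had log2 fold changes of 1.46 ± 0.42 (adjusted p = 0.120) and 1.17 ± 0.35 (adjusted p = 0.137) at 0.429 and 0.965 CPM in wild-type, and all their mutant libraries lay above the wild-type libraries. The gene with the highest average CPM, sptan1 (ENSDARG00000019231), the alpha spectrin of most tissues, was at 398 ± 23.5 and 392 ± 43.5 CPM, with a log2 fold change of -0.02 ± 0.09.

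The hemoglobin genes, the main cargo of the red cell, were read in the same fit. The study had already reported hemoglobin genes as higher in the mutant from these libraries, and by qPCR on separate pools. Of 16 hemoglobin genes 11 were tested, 10 rose and none fell (0.925% and 0.956% of all tested genes), with a median log2 fold change of 1.59. Their summed level was 1270 to 1361 CPM in wild-type and 3548 to 4397 CPM in the mutant, a ratio of the means of 3.01. The highest average CPM was that of hbae3 (ENSDARG00000079305), an alpha globin of the embryo, at 566 ± 41.5 and 1840 ± 214 CPM (SD, n = 3 each). The summed level of the 10 red cell genes was 282 to 301 CPM and 391 to 439 CPM, a ratio of 1.45. Most of the wild-type sum (mean 289 CPM) came from rhag and sptb, at means of 127 and 64.0 CPM. Neither of them was called, and in the mutant their means were 136 and 63.6 CPM. The rise in the sum came mainly from the genes that were called, over a large part that changed little.

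The 10 genes differed in how far they kept pace with hemoglobin when each was divided by the summed hemoglobin level of its library. For epb41b, hemgn and alas2 the log2 ratio differed between genotypes by -0.07, -0.17 and -0.20, and the libraries of both genotypes overlapped (exact permutation p = 0.6, 0.4 and 0.3). For gata1a the difference was -0.43, also with overlap (exact permutation p = 0.2), and it was 0.04 with a pseudocount of 0.1 CPM and -1.01 with 2 CPM in place of 0.5 CPM. slc4a1a and cahz were lower relative to hemoglobin in every mutant library, by 0.41 and 0.66 on the log2 scale. klf1, nfe2, rhag and sptb were lower in every mutant library by 0.93, 1.08, 1.49 and 1.61 on the same scale. With pseudocounts of 0.1 and 2 CPM the difference was -0.70 and -1.25 for klf1, and -0.86 and -1.34 for nfe2. Each of these 6 had an exact permutation p of 0.1, the smallest possible (adjusted p = 0.167 over 10 genes). The part of other tissues in the levels of klf1, nfe2, rhag and sptb was not tested, so these are ratios of whole embryos.

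**Figure D3:**
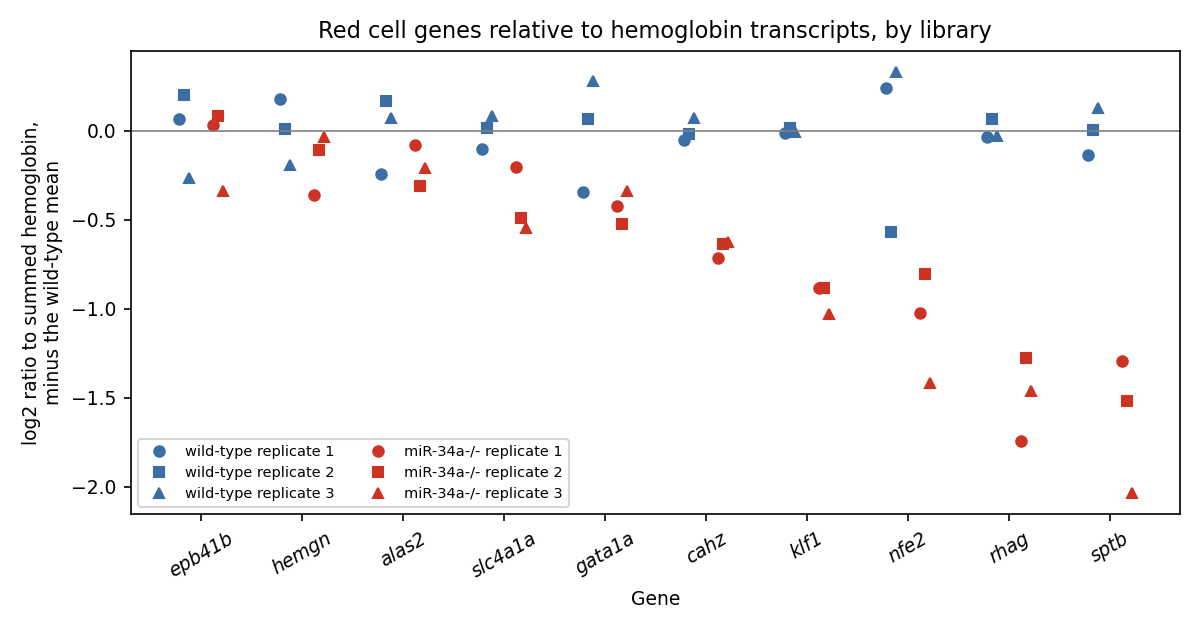
Log2 ratio of each red cell gene to the summed hemoglobin level in each library, minus the wild-type mean of that gene, with wild-type in blue and miR-34a-/- in red. The red and blue points of epb41b, hemgn, alas2 and gata1a overlap in range, and those of rhag and sptb lie below the blue points, by 1.49 and 1.61 between the genotype means.

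Markers of other cell types in the blood and the embryo were read in the same libraries, where 1.88% of all tested genes were called. Of 7 tested leukocyte marker genes none was called, but all 7 had fitted values above 0, with a median log2 fold change of 0.56. Their summed level was 33.9 to 39.9 CPM in wild-type and 49.7 to 53.9 CPM in the mutant. coro1a, a coat protein of leukocyte actin and the highest of them in average CPM, had 0.56 ± 0.12 (edgeR adjusted p = 0.0391), below the fold limit. The study had reported the general leukocyte marker lcp1 as higher in the mutant from these same libraries. Here lcp1 had 0.59 ± 0.14 (edgeR adjusted p = 0.0538), just above the limit of 0.05 for a call. All its mutant libraries lay above the wild-type libraries. Of 8 tested thrombocyte markers none was called (median 0.20, summed level 234 to 272 and 256 to 296 CPM). Most of that sum came from THBS1 (ENSDARG00000010785), highest in average CPM, at a mean of 188 CPM in wild-type. The defining markers itga2b and mpl were too low to test. itga2b had 0, 0 and 2 counts in wild-type and 5, 2 and 5 in the mutant, with no overlap after scaling, and mpl overlapped. None of 5 endothelial markers was called (median 0.05, 146 to 150 and 145 to 155 CPM, kdrl highest in average CPM), nor any of 7 skeletal muscle markers (median 0.13, 31675 to 32050 and 29797 to 36941 CPM, pvalb2 highest in average CPM). The part of other blood cells in the values of gata1a, nfe2 and hemgn, which thrombocyte or leukocyte lineages can also express, was not tested.

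The genes whose level followed the 10 red cell genes most closely over the 6 libraries were sought by Pearson correlation with their mean centred log2 CPM, as a description that rests largely on the gap between genotypes. The highest r was 0.998, for pvalb3 (ENSDARG00000022817), a parvalbumin, which rose with a log2 fold change of 0.99 ± 0.08 (SE, with an edgeR adjusted p of 0.000198). The embryonic beta globin genes hbbe1.3 (ENSDARG00000087390) and hbbe1.2 (ENSDARG00000115405) had r of 0.997 each. The others were UBLCP1 (ENSDARG00000103225), HSPA9, si:ch211-114n24.6, FPGS, CA6, DHRS13 (ENSDARG00000098746) and DPYD (ENSDARG00000010267), all with r of at least 0.995 at 3 digits. HSPA9, the mitochondrial chaperone, had a log2 fold change of only 0.11 ± 0.06 (adjusted p = 0.407), so a high r here says nothing of the size of a change. Of 17423 candidate genes, 205 (1.18%) had r above 0.95.

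In the RefSeq gene order of the assembly GRCz12tu, the 10 genes were on 10 different chromosomes. Of the 20 nearest tested genes with a matched symbol on either side of them, none was called in either direction. This is near the share of all tested genes called, 1.88%. The median log2 fold change of the 20 genes was 0.02. The neighbours of alas2, itpr3 and ajap1, had fitted values of -0.15 and -0.42, and those of slc4a1a, ubtf and selenow2b, had -0.03 and -0.26.

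With the fold limit kept at 1.5, alas2, hemgn, slc4a1a, epb41b and cahz were called in 13 of 13 alternatives, with the highest adjusted p between 0.00916 for cahz and 0.0188 for hemgn, and gata1a in 5 of 12. With a fold limit of 2, cahz was not called. klf1, nfe2, rhag and sptb were called in none, at lowest adjusted p of 0.1, 0.414, 0.0726 and 0.118.

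**Figure D4:**
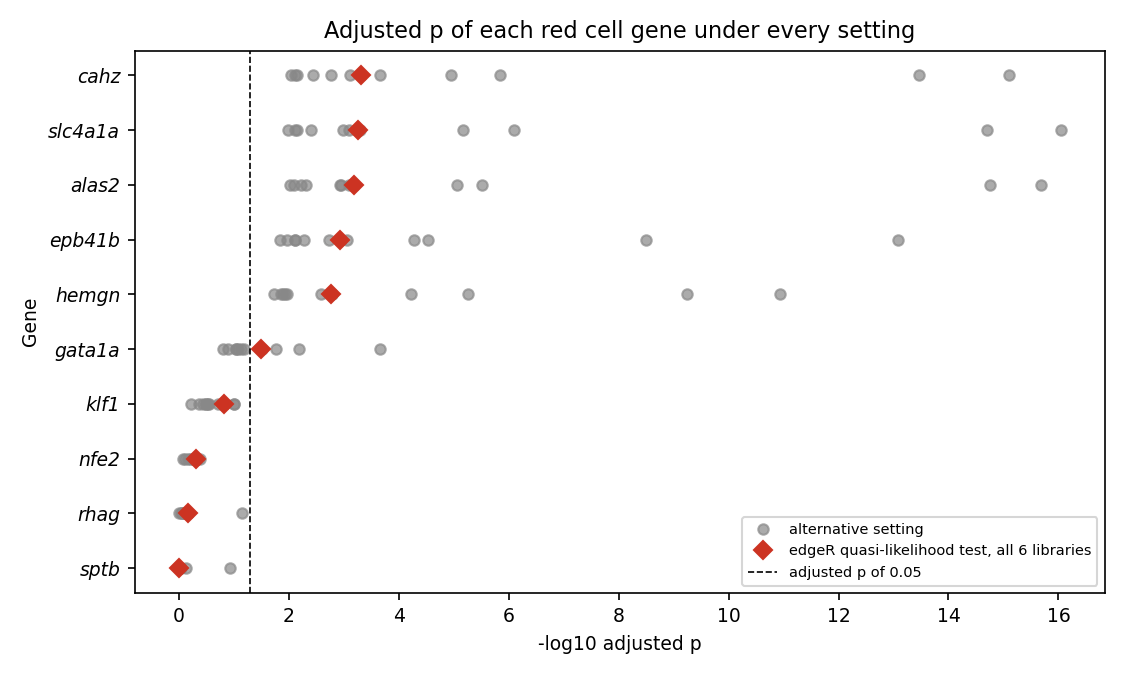
Adjusted p on a -log10 scale for each red cell gene in the test on all 6 libraries (red diamonds) and under each alternative (grey circles), with a dashed line at 0.05. The grey circles of cahz, slc4a1a, alas2, epb41b and hemgn are all to the right of the line, those of gata1a lie on both sides, and those of klf1, nfe2, rhag and sptb are all to the left.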

How the data were processed

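Per the submitters' processing notes, reads were trimmed with Trim Galore (0.4.4) and mapped with STAR (2.7.8) to danRer11. The authors deposited raw counts of reads per Ensembl gene. The counting mode and strand setting are not given in the sources used here, so reads of near-identical or overlapping genes may be shared. Genes were tested with edgeR (4.0.16) in R (4.3.3): filterByExpr, TMM scaling, quasi-likelihood test of miR-34a-/- against wild-type, and Benjamini-Hochberg adjustment. The CPM values use the TMM library sizes. Ratios within a library used CPM plus 0.5 and exact permutation tests, whose smallest possible p is 0.1. The 95% intervals are for the fitted log2 fold change, from its SE and a t quantile. The SE was derived from the fitted change and its test statistic, and rests on the spread between these libraries.

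The 10 genes and all lists were chosen with earlier results of these data known. Named were all 10 genes, up to 4 genes per list under an adjusted p of 0.05 and its gene of highest average CPM, which is not a level per length, the 10 genes of most similar pattern, and genes stated as chosen afterwards. This last group includes the neighbours, rh50, and those named in the lists without passing the test. Symbols were matched by a table of Ensembl names, then by identifier and symbol pairs in the study's tables. Where neither matched, the symbol without its paralog letter was used, and every remaining gene so named was taken. Such genes are given by the listed name and identifier, and which paralog they are was not checked. All genes listed as HBE1 were counted as hemoglobin. The test was also run on counts simulated with edgeR's own estimates of spread and no outlying library. That run cannot show how the test holds for these libraries. Alternatives were DESeq2 (1.42.0) size factors or its Wald test, TMM without hemoglobin genes and the 10 genes, other filters on low counts (none, or a mean of 50), edgeR's likelihood ratio test, a replicate block, leaving out each library, other pseudocounts (0.1 and 2 CPM), and a fold limit of 2. The fold limit of 2 and the ratios to rhag and sptb, with their alternatives, were chosen after seeing the data.

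Replicate numbers are shared between the genotypes in the labels, but nothing ties same-numbered pools to a clutch or day. Libraries of 1 genotype differed by more than sampling noise (a chi-square of 1.73 or more per degree of freedom).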

Additional observations from a re-analysis of the deposited data

How the results depend on the processing

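The number of the 10 genes called higher was 5 or 6 in every alternative run, and the number called lower was 0. Leaving out each library in turn gave 5 to 6 higher. The genotype effect of sptb changed sign when a library was left out, with fitted values from -0.20 to 0.13.

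Same-numbered libraries did not deviate together (correlations of -0.07, 0.00 and -0.18 for numbers 1, 2 and 3), so the numbers do not pair the samples. With the replicate block 5 of the 10 genes were called higher, gata1a was not called (log2 fold change 1.81), 0 family counterparts and 0 of the further transcription and signalling genes were called, and slc9a1b kept its call (1 gene). Over all genes the block took the calls from 178 to 104 higher.

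For the family counterparts (1 call), the count was 2 without a filter on low counts, 0 with a filter at a mean of 50 counts, 2 with edgeR's likelihood ratio test, 3 with DESeq2, 0 with a fold limit of 2, and 0 to 6 when a library was left out. For the further transcription and signalling genes (1 call) it was 0 with the filter at a mean of 50 counts, and 0 to 2 when a library was left out. For the further membrane genes (1 call) it was 3 with the likelihood ratio test and 0 to 3 when a library was left out. The filter at a mean of 50 counts left blf untested, while klf3 was still tested under it and lost its call. The cause was not tested for klf3 or for the other settings.

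The ratio of summed levels of the 10 genes stayed within 1 SD of 1.45. Of 248 values of the log2 ratios under alternatives, 15 moved by more than 1 SD, all with another pseudocount, most of them for gata1a and klf1, and 5 had the opposite sign.

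Depth limits gata1a, klf1 and nfe2, at 4 to 33 counts per library, and no exact test of 3 against 3 libraries can pass 0.05.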
